A study of Mus musculus with 21 samples.

Results

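The response of mouse osteoblast cultures to hPTH(7-34), a fragment of human parathyroid hormone that lacks the start of the peptide, was measured after 4 h against vehicle. Samples were chosen by their treatment label, which gave 3 arrays of cells treated with 100 nM hPTH(7-34) and 3 arrays of cells given vehicle, 6 of the 21 arrays of the series. All 22180 genes with a transcript cluster of their own on the array were examined, with 1 row per gene symbol. A gene was called where its adjusted p was under 0.05 over all 22180 genes (limma, Benjamini-Hochberg), and 16 genes were called.

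The hPTH(7-34), bPTH(3-34), hPTH(1-34) and vehicle groups used below had 3 arrays each. Every group consisted of primary calvarial cells, taken by enzyme digestion from the skull vault of C57BL/6J mice 7 to 10 days old and prepared independently for each biological replicate. The cells were subcultured, differentiated at passage 2 from day 3 to day 10, and held 24 h without serum, with albumin, before the 4 h treatment in the same kind of medium. All 3 peptides were used at 100 nM, and total RNA (100 ng per array) was hybridised to Mouse Gene 2.0 ST arrays. The remaining groups, used for side by side values only, were hPTH(1-31) and PTH(1-36) at 100 nM and a bovine PTH(7-34) amide carrying D-Trp12 and Tyr34 at 1 µM, written bPTH(7-34) here. No genotype or agent other than the peptides differed between groups, and the labels do not say that a replicate number marks 1 cell preparation across treatments.

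Parathyroid hormone acts on osteoblasts through the receptor Pth1r, which couples to Gs and cyclic AMP and also to Gq. The start of the hormone is needed to activate the receptor, whereas the later part mainly binds it, so fragments without the start have long been used as antagonists or as ligands with little cyclic AMP response. In osteoblasts the intact hormone raises cyclic AMP target genes and the osteoclast factor Tnfsf11 (RANKL). Inflammatory genes such as chemokines, Tnf and feedback inhibitors of NF-kappaB form another early programme, best known from macrophages that meet microbial products or cytokines, with NF-kappaB and interferon regulatory factors as its main transcription factors.

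The 21 arrays had medians of 3.49 to 3.61 log2 units, and correlations across genes were 0.992 to 0.994 within hPTH(7-34), 0.991 to 0.992 within vehicle and 0.990 to 0.993 between the groups. An array gives no read depth, and precision was set by the number of arrays. The 95% interval around a difference reached a median of 0.303 log2 units to each side. The osteoblast label was checked against 11 markers, of which 8 were measured. Col1a1 and Col1a2, the type I collagen chains, had 13.2 and 12.8 log2 units with hPTH(7-34) against 13.2 and 12.9 log2 units with vehicle. Bglap, the osteocalcin gene of mature osteoblasts, was low in both groups, at 3.44 ± 0.47 log2 units with hPTH(7-34) and 3.73 ± 0.20 log2 units with vehicle (SD, n = 3 each). Macrophage genes were also strong, with Lyz2 (lysozyme) at 12.4 log2 units with hPTH(7-34) and 12.2 log2 units with vehicle, and Cd68 (a lysosomal macrophage protein) at 11.4 log2 units with hPTH(7-34) and 11.3 log2 units with vehicle. Each array measured a whole culture with both sets of markers, and it was not determined in which cells a gene changed. In such a culture, fewer cells of a type and less RNA per cell cannot be told apart.

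With hPTH(7-34) a small set of genes was called, most of them inflammatory genes that rose. Of the 16 called genes (0.0721% of those tested), 13 were higher (0.0586%) and 3 were lower (0.0135%) than with vehicle. The higher genes encode chemokines (Cxcl10, Ccl2, Ccl12), the cytokine Tnf, receptors of microbial or metabolic ligands (Clec4e, Tlr2, Gpr84), inhibitors of NF-kappaB (Tnip3, Nfkbie), the itaconate-forming enzyme Acod1, the adaptor Pstpip2, and 2 predicted genes, Gm8995 and Gm12250. Changes reached at least 1.5-fold in 13 of the 16 genes and at least 2-fold in 9 of them. In all 16 the 3 hPTH(7-34) arrays lay beyond the 3 vehicle arrays, which also held for 6.68% of all genes on the higher side and 5.58% on the lower side.

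These calls rest on the spread estimated from all 7 groups. With the spread estimated from the 6 arrays alone 0 genes were called (smallest adjusted p 0.318, limma, with 1647 genes at an unadjusted p under 0.05). Without the intact analogs, a setting chosen after seeing the data, 0 genes were called as well (smallest adjusted p 0.0664, limma, with 1810 such genes). Both fits leave the group means, and so the directions, unchanged. The 16 genes had an unadjusted p of at most 0.00168 in both (limma), but they were chosen for small p on the same arrays. Leaving out replicate 3 of vehicle left 6 genes, Acod1, Clec4e, Gm8995, Nfkbie, Tlr2 and Tnip3, which were also called whichever other array of these 2 groups was left out, and without replicate 2 of vehicle 24 genes were called, 16 higher and 8 lower.

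Acod1, an enzyme that makes the antimicrobial metabolite itaconate in activated macrophages (transcript cluster 17302475), showed the largest difference. Its signals were 5.90, 6.08 and 7.22 log2 units with hPTH(7-34), against 4.46, 4.82 and 3.92 log2 units with vehicle. Replicate 3 of hPTH(7-34) stood above its 2 companions, and even the lowest treated array exceeded every vehicle array. The mean was 6.40 ± 0.72 log2 units with hPTH(7-34) and 4.40 ± 0.45 log2 units with vehicle (SD, n = 3 each), a difference of 2.00 ± 0.27 (SE) log2 units or 4.00-fold (adjusted p = 0.00284, limma).

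The 3 called chemokines attract different white blood cells: Cxcl10 acts on T cells through Cxcr3, and Ccl2 and Ccl12 act on monocytes. Cxcl10 (17449718) measured 7.33, 7.25 and 8.21 log2 units with hPTH(7-34), against 5.99, 6.18 and 5.82 log2 units with vehicle, which was 3.03-fold higher (log2 difference 1.60 ± 0.24 SE, adjusted p = 0.00759, limma). Ccl2 (17254041) measured 7.53, 7.57 and 8.41 log2 units with hPTH(7-34), against 6.62, 6.70 and 6.72 log2 units with vehicle, 2.23-fold higher (adjusted p = 0.0155, limma). Its vehicle arrays were nearly equal, whereas replicate 3 of hPTH(7-34) again exceeded the others. Ccl12 (17254059) measured 6.13, 6.12 and 6.47 log2 units with hPTH(7-34), against 5.12, 5.53 and 5.00 log2 units with vehicle, 2.03-fold higher (adjusted p = 0.00759, limma). In RefSeq, Ccl2, Ccl7, Ccl11, Ccl12 and Ccl8 follow each other on mouse chromosome 11, and Ccl7, another monocyte chemokine, was not called. Ccl7 had 7.26, 7.08 and 7.67 log2 units with hPTH(7-34), against 6.56, 6.53 and 6.56 log2 units with vehicle (log2 difference 0.79 ± 0.16 SE, adjusted p = 0.0980, limma). The Ccl2 and Ccl12 calls were lost without replicate 1 of vehicle, and the Ccl12 call also without replicate 3 of hPTH(7-34). The neutrophil chemokines had smaller values, 0.48 for Cxcl5 (adjusted p = 0.311, limma) and 0.06 for Cxcl1 (adjusted p = 0.966, limma).

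3 of the called genes encode receptors. Clec4e, the C-type lectin Mincle that recognises microbial glycolipids and products of dead cells (17470627), had 7.60, 7.55 and 8.19 log2 units with hPTH(7-34), against 6.11, 6.55 and 6.33 log2 units with vehicle. It was 2.73-fold higher (log2 difference 1.45 ± 0.18 SE, adjusted p = 0.00221, limma), and the gap between the groups exceeded the spread within either. Gpr84, a receptor of medium-chain fatty acids (17322355), had 5.82, 5.84 and 6.66 log2 units with hPTH(7-34), against 4.67, 4.98 and 4.56 log2 units with vehicle, a log2 difference of 1.37 ± 0.21 SE (adjusted p = 0.00759, limma). Tlr2, which senses bacterial lipoproteins (17406279), had 7.52, 7.56 and 7.92 log2 units with hPTH(7-34), against 6.78, 6.82 and 6.82 log2 units with vehicle, 1.82-fold higher (adjusted p = 0.00221, limma). Other sensors of the same kind were not called, with log2 differences of 0.16 for Tlr4 and 0.36 for its partner Cd14 (adjusted p = 0.754 and 0.557, limma).

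Tnf and inhibitors of NF-kappaB rose beside the chemokines. Tnf, the cytokine tumour necrosis factor (17344309), had 7.27, 7.30 and 7.74 log2 units with hPTH(7-34), against 6.36, 6.85 and 6.26 log2 units with vehicle, 1.93-fold higher (adjusted p = 0.0252, limma). Replicate 2 of vehicle came closest to the treated arrays, and the call was lost without replicate 2 or 3 of hPTH(7-34) or replicate 1 or 3 of vehicle. Tnip3, which binds the deubiquitinase A20 and restrains NF-kappaB (17459196), had 7.26, 7.36 and 7.73 log2 units with hPTH(7-34), against 6.13, 6.36 and 6.59 log2 units with vehicle, 2.13-fold higher (adjusted p = 0.00221, limma). Nfkbie, an inhibitor that holds NF-kappaB in the cytoplasm (17337927), had 7.02, 6.88 and 7.43 log2 units with hPTH(7-34), against 5.89, 6.34 and 6.17 log2 units with vehicle, 1.97-fold higher (adjusted p = 0.00284, limma). Neither gene's groups overlapped.

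The remaining 3 higher genes, like Gpr84, belonged to none of the gene lists. Pstpip2, an adaptor of the actin cytoskeleton whose loss in mice causes sterile bone inflammation (17352036), had 6.93, 6.93 and 7.04 log2 units with hPTH(7-34), against 6.54, 6.54 and 6.32 log2 units with vehicle (log2 difference 0.50 ± 0.09 SE, adjusted p = 0.0441, limma). The 2 predicted genes are named although the naming rule left such genes out, and they were chosen after their values were seen. Gm12250, listed in RefSeq with the synonym Irgb10 and lying beside the interferon-inducible GTPase genes Igtp and Irgm2 on chromosome 11 (17249977), had 6.72, 6.86 and 7.17 log2 units with hPTH(7-34), against 5.77, 6.23 and 5.60 log2 units with vehicle (log2 difference 1.05 ± 0.19 SE, adjusted p = 0.0350, limma). Gm8995 (17494674) had 6.48, 6.30 and 6.47 log2 units with hPTH(7-34), against 5.35, 5.15 and 5.45 log2 units with vehicle (log2 difference 1.10 ± 0.14 SE, adjusted p = 0.00221, limma). The Pstpip2 call was lost without any 1 of the 6 arrays, and the Gm12250 call without any 1 of them except replicate 2 of vehicle. Averaging the several transcript clusters of a gene also lost the Pstpip2 call, and its difference fell as low as 0.21 log2 units across the alternatives. Gm8995 was the 1 called higher gene in which replicate 3 of hPTH(7-34) was not the highest treated array. Its gene family has near-copies, so its assignment is uncertain.

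The 3 lower genes encode regulators of development. Hoxa7, a homeobox gene of body patterning (17466845), had 2.97, 3.10 and 3.10 log2 units with hPTH(7-34), against 3.75, 3.67 and 3.91 log2 units with vehicle (log2 difference -0.72 ± 0.11 SE, adjusted p = 0.00759, limma). Nrarp, a feedback inhibitor of Notch signalling (17367852), had 4.02, 3.85 and 3.96 log2 units with hPTH(7-34), against 4.50, 4.52 and 4.56 log2 units with vehicle (log2 difference -0.58 ± 0.09 SE, adjusted p = 0.00858, limma). Gbx2, a homeobox gene of the developing brain (17215601), had 4.76, 4.76 and 4.65 log2 units with hPTH(7-34), against 5.25, 5.27 and 5.38 log2 units with vehicle (log2 difference -0.58 ± 0.09 SE, adjusted p = 0.00910, limma). The vehicle means of Hoxa7, Nrarp and Gbx2 ranked at percentiles 41.6, 51.0 and 59.7 of all genes, and none of the 3 was called once replicate 3 of vehicle was left out. The call was also lost for Hoxa7 without replicate 1, for Nrarp without replicate 2 and for Gbx2 without replicate 3 of hPTH(7-34). Averaging the several transcript clusters of a gene lost the Gbx2 call as well.

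**Figure D1:**
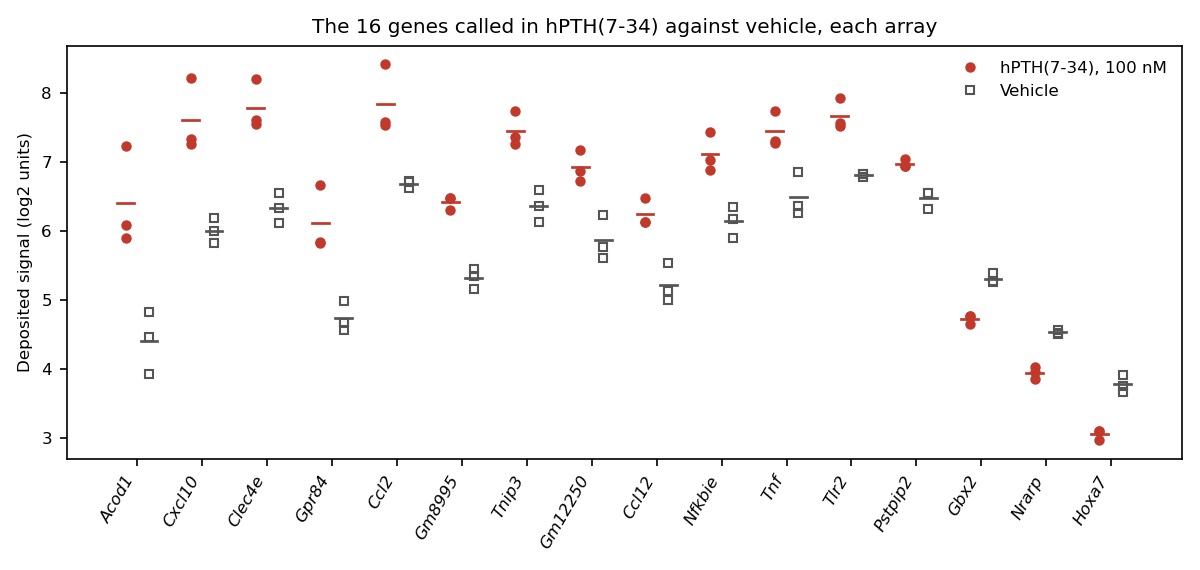
Deposited signal (log2 units, vertical axis) of the 16 called genes (horizontal axis), 1 point per array, with filled circles for hPTH(7-34), open squares for vehicle and a line at each mean of 3 arrays. The groups do not overlap in any of the 16 genes, and replicate 3 of hPTH(7-34) is the highest treated array in 12 of the 13 higher genes.

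Replicate 3 of hPTH(7-34) stood above the other treated arrays in this set. It was the highest of the 3 in 12 of the 13 higher genes (92.3%), against 73 of the 227 genes of the innate lists described below (32.2%) and 30.5% of all genes. The mean signal of the 13 genes was 6.89, 6.89 and 7.44 log2 units in replicates 1 to 3 of hPTH(7-34), against 5.83, 6.08 and 5.81 log2 units in those of vehicle. Without replicate 3, 13 genes were called, 9 higher and 4 lower, of which 11 were among the 16. The summed signal of the macrophage markers on the same arrays is given below.

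The promoters of the 4 called genes of the innate lists with the largest differences and an entry in the promoter table are shown because these genes moved together. Each is 300 bases from RefSeq (GRCm38.p6), from 250 before the gene's start to 50 after it, written 5′ to 3′ on the gene's strand. Capitals mark matches to the kappaB consensus, the site that NF-kappaB proteins bind. Acod1 lies at chr14:103046762-103047061 (plus strand), Cxcl10 at chr5:92348840-92349139 (minus strand), Clec4e at chr6:123289822-123290121 (minus strand) and Tnip3 at chr6:65590148-65590447 (plus strand).
Acod1: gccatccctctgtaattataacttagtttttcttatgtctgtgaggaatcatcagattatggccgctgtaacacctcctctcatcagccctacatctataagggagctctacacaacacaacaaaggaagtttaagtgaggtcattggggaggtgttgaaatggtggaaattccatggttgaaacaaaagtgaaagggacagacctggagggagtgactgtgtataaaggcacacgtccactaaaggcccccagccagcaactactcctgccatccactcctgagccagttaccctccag
Cxcl10: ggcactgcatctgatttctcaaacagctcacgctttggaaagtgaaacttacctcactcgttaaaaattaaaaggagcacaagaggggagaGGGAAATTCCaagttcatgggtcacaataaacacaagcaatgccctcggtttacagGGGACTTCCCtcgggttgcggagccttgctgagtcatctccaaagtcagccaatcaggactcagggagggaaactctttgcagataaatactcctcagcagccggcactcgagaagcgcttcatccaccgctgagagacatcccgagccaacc
Clec4e: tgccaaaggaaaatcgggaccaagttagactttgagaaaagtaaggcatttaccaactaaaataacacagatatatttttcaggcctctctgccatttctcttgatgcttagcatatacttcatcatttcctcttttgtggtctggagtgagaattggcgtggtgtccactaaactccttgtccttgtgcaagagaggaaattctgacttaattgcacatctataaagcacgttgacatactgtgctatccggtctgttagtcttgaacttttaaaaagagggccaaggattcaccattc
Tnip3: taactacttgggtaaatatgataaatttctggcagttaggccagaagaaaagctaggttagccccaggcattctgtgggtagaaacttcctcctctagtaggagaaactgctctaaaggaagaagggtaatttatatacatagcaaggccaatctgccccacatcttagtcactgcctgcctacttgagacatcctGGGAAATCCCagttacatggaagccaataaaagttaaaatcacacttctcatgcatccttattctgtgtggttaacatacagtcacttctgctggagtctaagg

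Within these windows Cxcl10 had 2 matches to the kappaB consensus, whose first bases lie at -159 and -103 relative to the gene's start, Tnip3 had 1, at -54, and Acod1 and Clec4e had 0. Both strands were searched. Of the 13 higher genes 10 had a promoter in the table, and 4 of these, Cxcl10, Tnip3, Nfkbie and Tlr2, held a kappaB match, which 4.5% of the 32841 promoters held. The interferon response element core, GAAA followed by any 2 bases and GAAA, occurred in 2 of the 10, Cxcl10 and Gm12250, and in 3.4% of all promoters. The CREB site core TGACG occurred in 0 of the 10 and in 20.8% of all promoters. A match is a string of letters and not a shown binding site, and no match says only that these letters are not in this window. Of the 3 lower genes Nrarp held a kappaB match and TGACG, and the promoters of Hoxa7 and Gbx2 held none of the 3 motifs.

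More of the innate immune genes, the called ones included, lay above the vehicle level than below it. The 8 innate lists together held 227 measured genes, of which 9 were called higher and 0 lower. An unadjusted p under 0.05 on the higher side was found for 64 of the 227 (28.2%), against 3.9% of all genes, and on the lower side for 2 of them, against 4.29% of all genes. The median log2 difference was 0.17 over the 227 genes and 0.00 over all genes, and 177 of the 227 were above 0, against 50.3% of all genes. The lists were composed with earlier results of these data known, so these counts describe the lists and are no independent evidence of their direction.

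Among the 8 innate lists the interferon-stimulated genes had the largest share of members above 0, although 0 of the 35 measured were called. 33 of the 35 lay above 0, with a median of 0.30 log2 units, and 18 (51.4%) had an unadjusted p under 0.05, all on the higher side. Irf1, a transcription factor of the interferon response, had 6.55, 6.55 and 6.78 log2 units with hPTH(7-34), against 6.08, 6.09 and 6.15 log2 units with vehicle (log2 difference 0.52 ± 0.10 SE, adjusted p = 0.102, limma). Igtp, an interferon-inducible GTPase, had 7.47, 7.51 and 7.62 log2 units with hPTH(7-34), against 6.88, 7.19 and 6.63 log2 units with vehicle (log2 difference 0.63, adjusted p = 0.168, limma). Neither gene's groups overlapped. Gbp5, a guanylate-binding protein, had the widest spread, at 3.66, 4.05 and 5.12 log2 units with hPTH(7-34) against 3.12, 3.17 and 3.37 log2 units with vehicle (adjusted p = 0.297, limma), and Ifit1, an RNA-binding antiviral protein, differed by 0.58 log2 units (adjusted p = 0.194, limma).

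In the NF-kappaB list 2 of 27 genes were called higher, Tnip3 and Nfkbie, and 23 lay above 0. An unadjusted p under 0.05 on the higher side was found for 13 (48.1%), and the list median was 0.28 log2 units. Its members below the threshold included Tnfaip3, the deubiquitinase A20, at 0.68, Bcl3, a nuclear cofactor of NF-kappaB, at 0.57, and Nfkbia, the classical inhibitor, at 0.55 log2 units (adjusted p = 0.194, 0.168 and 0.177, limma). The pattern recognition list had 2 of 33 genes called, 30 above 0 and a median of 0.19. There the inflammasome genes Casp4 and Casp1, which cut gasdermin or interleukin precursors, and Nlrp3, a sensor of cell damage, had differences of 0.63, 0.53 and 0.63 log2 units (adjusted p = 0.217, 0.179 and 0.285, limma). The chemokine list had 3 of 27 genes called and a median of 0.20. In the list of adhesion molecules and enzymes 1 of 22 was called, Acod1, the median was 0.11, and Icam1, an adhesion molecule for white blood cells, differed by 0.69 log2 units (adjusted p = 0.141, limma).

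The remaining 3 innate lists held 1 call. The cytokine list had 1 of 27 genes called, Tnf, and a median of 0.01 log2 units, with -0.08 for Il6 and -0.34 for Il1b (adjusted p = 0.966 and 0.778, limma). Both genes had low signals, at 2.58 and 2.46 log2 units with hPTH(7-34) against 2.65 and 2.80 log2 units with vehicle, so falls or small changes may be understated. Il6 averaged 5.02 log2 units with hPTH(1-34), so a rise of that size was measurable from this level. The acute phase list had 0 of 26 genes called and a median of 0.12, and the list of cytokine receptors and JAK-STAT genes had 0 of 31 called and a median of 0.14. Saa3, a serum amyloid, had 6.62, 6.61 and 5.84 log2 units with hPTH(7-34), against 5.55, 5.94 and 5.53 log2 units with vehicle, and its groups overlapped (adjusted p = 0.474, limma). Lcn2, an iron-sequestering protein, differed by -0.14 log2 units (adjusted p = 0.830, limma).

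**Figure D2:**
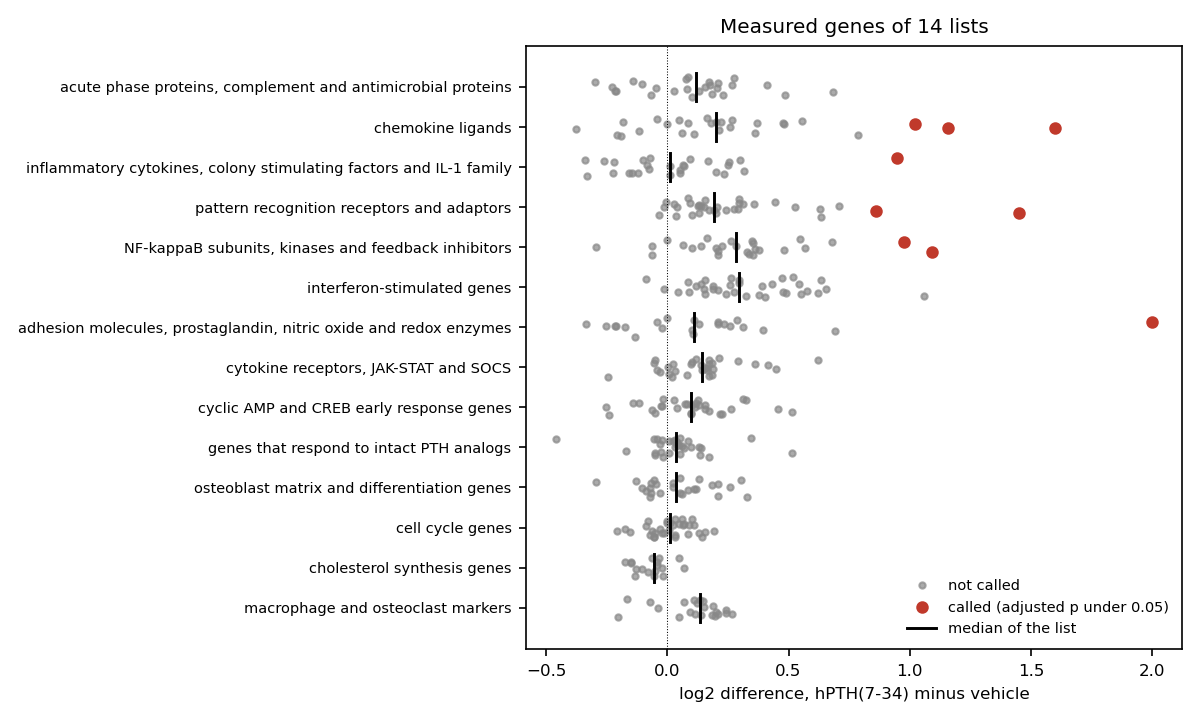
Log2 difference of hPTH(7-34) minus vehicle (horizontal axis) for each measured gene of 14 lists (rows), with called genes in red, the others in grey and the median of a list as a black line. The called genes lie between 0.86 and 2.00, and the medians of the interferon and NF-kappaB lists, at 0.30 and 0.28, lie to the right of those of the osteoblast and cell cycle lists, at 0.04 and 0.01.

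At the call threshold, the called genes with the largest adjusted p were Tnf (0.0252), Gm12250 (0.0350) and Pstpip2 (0.0441) by limma. Just outside it were Rgs1, a brake on G protein signalling, at 0.59 log2 units (adjusted p = 0.0758, limma), the predicted gene Gm7241 at -0.60 (adjusted p = 0.0823, limma), and Ccl7. The sizes of the differences inside and outside the threshold overlapped.

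Macrophage and osteoclast markers were measured because several of the higher genes are known from macrophages. 0 of 22 markers were called, 18 were above 0, the median was 0.14 log2 units, and the groups did not overlap in 4 (Mrc1, C1qa, C1qb and Ctss, all higher), which was 18.2% of the markers against 6.68% of all genes. Their summed level, as log2 of the sum of linear signals, was 14.4, 14.3 and 14.2 log2 units in replicates 1 to 3 of hPTH(7-34), against 14.1, 14.2 and 14.1 log2 units in those of vehicle. Csf1r, the receptor for the macrophage growth factor, differed by 0.09 log2 units. Replicate 3 of hPTH(7-34) was the highest treated array for the 13 higher genes and the lowest for the summed markers. Of the osteoclast genes among the markers, Oscar, Dcstamp, Ocstamp and Calcr lay between 2.60 and 3.69 log2 units in the means of both groups. Mmp9, also among them, was higher, at 5.11 log2 units with hPTH(7-34) and 4.90 log2 units with vehicle. The levels of Acp5 and Ctsk, which the markers also include, are not given here. The part of macrophage content in the changes was not tested. Summed markers of neutrophils and mast cells lay between 5.84 and 6.10 log2 units with hPTH(7-34) and between 5.90 and 6.07 log2 units with vehicle, and 0 markers of osteoblasts, endothelium, lymphocytes, fat, cartilage, muscle or red cells were called.

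Genes of the classical response to parathyroid hormone were not called with hPTH(7-34). The 30 genes of this kind were picked from earlier results of these data, 15 as higher and 15 as lower with intact analogs, and 0 of the 30 were called against vehicle. Their median difference was 0.04 log2 units and they ranged from -0.46 for Ramp3, a receptor partner protein, to 0.51 for Nr4a3, an orphan nuclear receptor. No 95% interval reached below -0.77 or above 0.91 log2 units. Dgat1, an enzyme of triacylglycerol synthesis, had 5.97, 5.84 and 5.99 log2 units with hPTH(7-34), against 6.00, 5.63 and 5.65 log2 units with vehicle, and the interval of the difference ran from -0.04 to 0.38. Vdr, the vitamin D receptor, had 7.19, 7.02 and 7.20 log2 units with hPTH(7-34), against 7.24, 7.24 and 7.00 log2 units with vehicle, with an interval from -0.24 to 0.19. For both genes the groups overlapped. Tnfsf11 (RANKL), the main osteoclast factor, had 4.70, 4.42 and 4.63 log2 units with hPTH(7-34), against 4.18, 4.28 and 4.25 log2 units with vehicle, a difference of 0.35 whose adjusted p was 0.667 (limma) although its groups did not overlap.

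**Figure D3:**
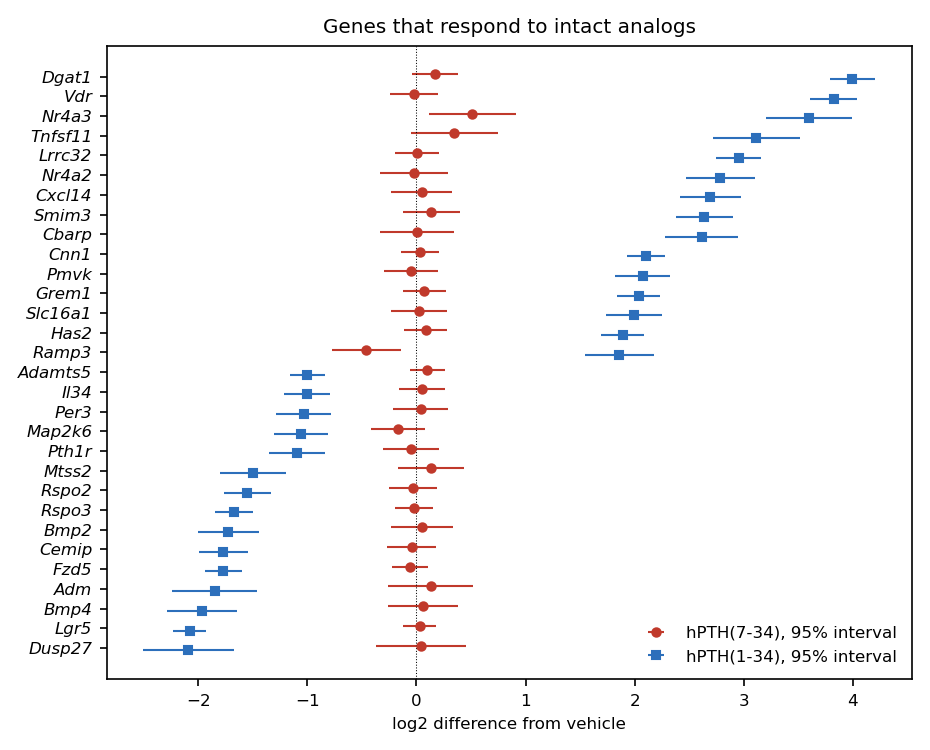
Log2 difference from vehicle (horizontal axis) of 30 genes picked for their response to intact analogs (rows), for hPTH(7-34) (circles) and hPTH(1-34) (squares), each with its 95% interval. The hPTH(7-34) values lie between -0.46 and 0.51, and those of hPTH(1-34) reach 4.00 for Dgat1. Both differences use the same vehicle arrays.

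Among the lists of cyclic AMP and bone genes, calls were found in that of osteoclast-supporting factors only. Cyclic AMP and CREB target genes of the early response had 0 of 30 called and a median of 0.10 log2 units, and genes of the receptor and of cyclic AMP signalling had 0 of 29 called and a median of 0.00, with -0.05 for Pth1r. Osteoblast matrix and differentiation genes had 0 of 26 called, matrix proteases 0 of 26, and Wnt, BMP and TGF-beta genes 0 of 36. Col1a1 differed by -0.06, the collagenase Mmp13 by 0.06 and the Wnt inhibitor Sost by 0.11 log2 units. Among 19 osteoclast-supporting factors 2 were called higher, Ccl2 and Tnf, which the inflammatory lists also hold, and 12 lay above 0. Clock genes (0 of 17), cell cycle genes (0 of 33), stress genes (0 of 23) and cholesterol synthesis genes (0 of 17) were not called. In the cholesterol list 2 of 17 genes lay above 0, with a median of -0.06 log2 units.

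The other peptides were set side by side with hPTH(7-34) for the 16 genes, each against the same 3 vehicle arrays. With bPTH(3-34) 0 genes were called (0%, with 1313 at an unadjusted p under 0.05, limma), and with bPTH(7-34), at the higher dose of 1 µM, 0 genes were called as well (0%, with 1151). For the 16 genes the log2 differences lay between -0.38 and 0.37 with bPTH(3-34) and between -0.35 and 0.36 with bPTH(7-34). hPTH(1-31), hPTH(1-34) and PTH(1-36) called 8, 10 and 8 of the 16 genes, and 8.7%, 8.64% and 7.23% of all genes. Acod1 differed from vehicle by 2.00 log2 units with hPTH(7-34), and by 0.80, 1.19 and 0.57 with hPTH(1-31), hPTH(1-34) and PTH(1-36). Cxcl10 differed by 1.60 with hPTH(7-34), and by 0.66, 0.58 and 0.69 with the same 3 peptides. Gpr84 differed by 1.37 with hPTH(7-34), and by 1.77, 2.02 and 1.52 with them. Ccl12 differed by 1.02 with hPTH(7-34), and by 1.87, 1.80 and 1.82 with them. For Gm12250 the difference was 1.05 with hPTH(7-34), and 0.08, 0.01 and 0.24 with them. Hoxa7 lay below vehicle with all 6 peptides, from -0.72 with hPTH(7-34) to -0.22 with hPTH(1-31). Nrarp differed by -0.58 with hPTH(7-34), by -0.31 with bPTH(3-34) and by -0.25 with bPTH(7-34). With hPTH(1-31), hPTH(1-34) and PTH(1-36) the Nrarp differences were 0.01, -0.11 and -0.28. Gbx2 differed by -0.58, -0.32 and -0.23 with the truncated peptides and by -0.24, 0.01 and -0.13 with the intact ones, in the same order. Because these differences share the vehicle arrays, likeness between the peptides was not tested from them.

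**Figure D4:**
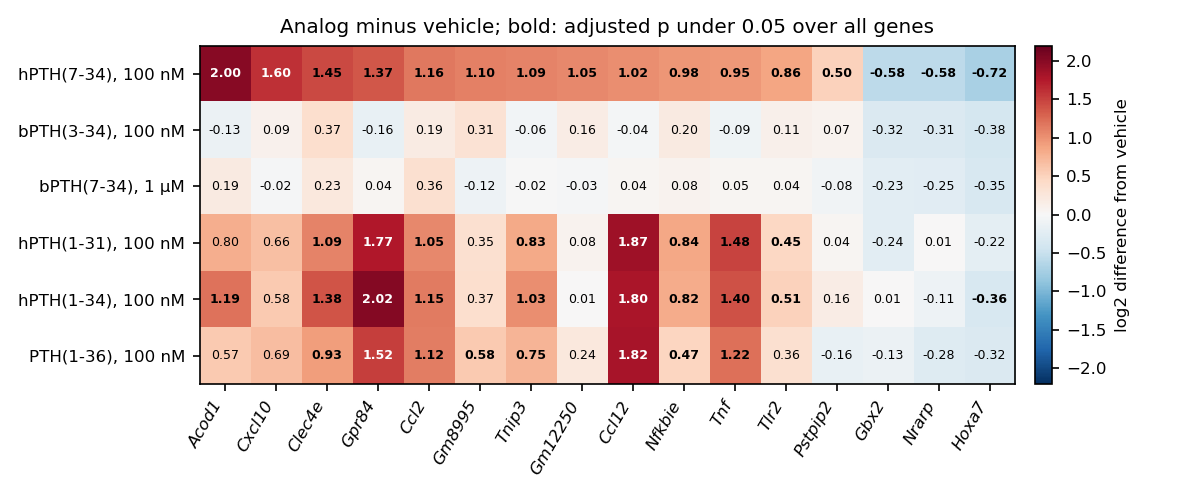
Log2 difference from vehicle (colour and printed value) of the 16 genes called with hPTH(7-34) (columns) for each of the 6 peptides with its dose (rows), all against the same 3 vehicle arrays. Bold values were called (adjusted p under 0.05 over all genes). The 2 bovine truncated peptides stay between -0.38 and 0.37.

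2 direct contrasts without vehicle arrays set hPTH(7-34) against peptides at the same dose of 100 nM, with p-values adjusted over all genes of each. bPTH(3-34) is a bovine fragment that lacks fewer of the first residues than hPTH(7-34), so the pair differs both in length and in species sequence. Against bPTH(3-34) hPTH(7-34) had 11 genes higher (0.0496%) and 0 lower, and 9 of these 11 were among the 16 genes called against vehicle. The hPTH(7-34) arrays are the same in both contrasts, so the overlap was not independent of the choice of genes. Acod1 had 5.90, 6.08 and 7.22 log2 units with hPTH(7-34), against 4.66, 4.19 and 3.97 log2 units with bPTH(3-34), a difference of 2.13 ± 0.27 SE (adjusted p = 0.00353, limma). Tnip3 had 7.26, 7.36 and 7.73 log2 units with hPTH(7-34), against 6.43, 6.28 and 6.19 log2 units with bPTH(3-34), a difference of 1.15 ± 0.14 SE (adjusted p = 0.00304, limma). The groups did not overlap for either gene. Gpr84 differed by 1.53, Cxcl10 by 1.51, Clec4e by 1.08, Ccl12 by 1.06, Tnf by 1.03, Nfkbie by 0.77 and Tlr2 by 0.75 log2 units, all called. The 2 further called genes were Irf1, at 0.59, and Nlrp1c-ps, a pseudogene of an inflammasome sensor, at 1.36 log2 units (adjusted p = 0.0452 for each, limma), and the Irf1 call was lost without any 1 of the 6 arrays. The Nlrp1c-ps call was lost without any 1 of them except replicate 1 of bPTH(3-34), and the Nfkbie call without any 1 except replicate 2 of hPTH(7-34). Nlrp1c-ps was dim, at means of 3.32 log2 units with hPTH(7-34) and 1.97 log2 units with bPTH(3-34), both below the lowest array median of 3.49.

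7 of the 16 genes were not called between hPTH(7-34) and bPTH(3-34). Ccl2 was 0.97 log2 units higher with hPTH(7-34), with a 95% interval from 0.57 to 1.37 (adjusted p = 0.105, limma), and Gm8995 was 0.79 higher, with an interval from 0.49 to 1.08 (adjusted p = 0.0506, limma). For the lower genes Hoxa7, Nrarp and Gbx2 the differences were -0.34, -0.27 and -0.26 log2 units (adjusted p = 0.707, 0.765 and 0.824, limma). With the spread of these 2 groups alone 0 genes were called, and leaving out replicate 2 of bPTH(3-34) left 2 genes, Acod1 and Tnip3. Without replicate 3 of hPTH(7-34) 4 genes were called, 3 of them among the 11, and without replicate 3 of bPTH(3-34) 4 genes were called, all 4 among the 11.

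hPTH(1-34) has the same human sequence as hPTH(7-34) but keeps the first residues. Between them 2409 genes were called (10.9%), 1478 higher with hPTH(7-34) (6.66%) and 931 lower (4.2%), of which 908 differed by at least 1.5-fold (4.09%). With quantile normalization the split was 1101 higher and 1023 lower. The widest gaps were those of the classical response. Vdr was 3.85 ± 0.10 (SE) log2 units lower with hPTH(7-34), at 7.19, 7.02 and 7.20 log2 units against 10.93, 11.07 and 10.95 log2 units with hPTH(1-34) (adjusted p = 3.09e-14, limma). Dgat1 was 5.97, 5.84 and 5.99 log2 units with hPTH(7-34), against 9.81, 9.68 and 9.78 log2 units with hPTH(1-34). Nr4a3 differed by -3.08, Nr4a2, another orphan nuclear receptor, by -2.81, Lrrc32, which presents latent TGF-beta, by -2.95, and Tnfsf11 by -2.77 log2 units. On the higher side were Lgr5, an R-spondin receptor, at 2.11, the bone morphogenetic proteins Bmp4 at 2.03 and Bmp2 at 1.78, the vasodilator peptide gene Adm at 1.98 and the Wnt receptor Fzd5 at 1.71 log2 units. All 30 genes of the intact response list were called between these peptides, 15 higher and 15 lower with hPTH(7-34). The list was picked from these same data for its response to intact analogs, so this count follows largely from that choice. Il6 was 2.45 log2 units lower with hPTH(7-34) than with hPTH(1-34).

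The inflammatory genes split in this direct contrast. Of the 16 genes 8 were called. Cxcl10 was 1.02 ± 0.24 (SE) log2 units higher with hPTH(7-34), at 7.33, 7.25 and 8.21 log2 units against 6.55, 6.99 and 6.18 log2 units with hPTH(1-34) (adjusted p = 0.00884, limma). Gm12250 was 1.04 ± 0.19 (SE) higher, at 6.72, 6.86 and 7.17 log2 units with hPTH(7-34) against 5.91, 6.12 and 5.59 log2 units with hPTH(1-34) (adjusted p = 0.000862, limma). The groups overlapped for neither gene, and the Cxcl10 call was lost without replicate 3 of hPTH(7-34) or replicate 3 of hPTH(1-34), while the Gm12250 call was kept in all 14 alternatives. Gm8995 and Pstpip2 were higher by 0.73 and 0.34 log2 units, and Ccl12 was 0.78 log2 units lower with hPTH(7-34) (adjusted p = 0.00224, limma). The lower genes Hoxa7, Nrarp and Gbx2 were also lower against hPTH(1-34), with differences of -0.36, -0.48 and -0.58 log2 units, but Hoxa7 was called in 4 of 13 alternatives. Clec4e, Ccl2 and Tnip3 differed by 0.07, 0.01 and 0.06 log2 units, with 95% intervals from -0.30 to 0.45, from -0.39 to 0.40 and from -0.23 to 0.35. Acod1 was 0.81 higher with an interval from 0.25 to 1.38 (adjusted p = 0.0611, limma).

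In the list of interferon-stimulated genes, the called differences between hPTH(7-34) and hPTH(1-34) lay in 1 direction. 13 of the 35 measured genes were called higher with hPTH(7-34) than with hPTH(1-34) and 0 lower, where 6.66% of all genes were higher and 4.2% lower, and the list's median was 0.36 log2 units. With 1 array of either group left out, 7 to 10 of the list were called higher and 0 lower. Irf1 had 6.55, 6.55 and 6.78 log2 units with hPTH(7-34), against 6.03, 6.18 and 5.95 log2 units with hPTH(1-34), a difference of 0.57 ± 0.10 SE (adjusted p = 0.00107, limma). Igtp had 7.47, 7.51 and 7.62 log2 units with hPTH(7-34), against 7.11, 6.80 and 6.79 log2 units with hPTH(1-34), a difference of 0.63 ± 0.14 SE (adjusted p = 0.00520, limma). Neither gene's groups overlapped. Mx2, an antiviral GTPase named after its values were seen, had the largest difference of the list, at 1.13 log2 units (adjusted p = 0.00111, limma). Against vehicle, the median of the same list was 0.30 log2 units with hPTH(7-34) and -0.06 log2 units with hPTH(1-34), with 1 gene called higher and 1 lower for hPTH(1-34). Cytokine receptor and JAK-STAT genes went the other way, with 1 of 31 called higher and 12 lower with hPTH(7-34) than with hPTH(1-34).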

How the data were processed

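Gene expression was measured on 21 arrays, 3 for each of 7 treatments. The deposited table holds 1 column of log2 signals per array, which the authors made with RMA in Affymetrix Expression Console, per the submitters' processing notes. RMA usually corrects background, quantile-normalizes and summarises probe sets, which makes arrays comparable and can understate changes of dim genes. The notes give no settings and no base of the logarithm, so log2 was read from the method and the range (0.25 to 13.6), and every fold rests on that reading. The genome build of the array annotation is not given in the sources used here.

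Of 41345 transcript clusters, 23521 had 1 gene symbol, 1814 had several and 16010 were unnamed here. For 1082 genes with several clusters the one of highest mean signal was kept, which left 22180 genes. All 21 arrays entered 1 limma 3.58.1 model (R 4.3.3, lmFit and eBayes, 14 residual degrees of freedom). Tests were two-sided, with Benjamini-Hochberg adjustment across all genes of a contrast. The fits were tested on simulated data. Spread is given as SD of 3 arrays or as the model's SE. Cultures were prepared independently per replicate, so replicates are cell preparations.

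The comparison, lists and contrasts were chosen with earlier results of these data known. Genes were named by rule: the 15 highest and 15 lowest called against vehicle (8 and 8 against another analog) with groups that did not overlap, without predicted genes, up to 5 per list with the smallest p, a panel of known genes, and the genes nearest the threshold. Replicate numbers did not pair arrays, since deviations of same-numbered hPTH(7-34) and vehicle arrays correlated at -0.01, 0.07 and 0.05. The alternatives were the 2 groups alone, the replicate block, other variance settings, centring, quantile normalization, a signal filter, other cluster rules and leaving out each array. No array was left out of the reported values.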

Additional observations from a re-analysis of the deposited data

Results flagged for a closer look

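4 transcript clusters without a single gene symbol, which the comparisons by gene left out, passed the adjusted threshold when all 41345 clusters were tested together. Clusters 17313581 and 17550034, to which the annotation gives no symbol, hold the same value on every array and were lower with hPTH(7-34), at a mean of 5.60 log2 units against 6.72 log2 units with vehicle (log2 difference -1.12 for each, adjusted p = 0.0209, limma). Clusters 17494651 and 17494664, with 4 symbols each, were higher with hPTH(7-34). Cluster 17494651 averaged 8.26 log2 units with hPTH(7-34) and 7.38 log2 units with vehicle, and cluster 17494664 averaged 7.79 log2 units with hPTH(7-34) and 6.91 log2 units with vehicle (log2 difference 0.88 for each, adjusted p = 0.00743, limma). No gene is named for these 4 clusters, and the cause of their differences was not tested. The other 13 of the 17 clusters called in that test stand for genes of the report. Groups of 3 arrays are too small for a test of single outlying arrays.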

How the results depend on the processing

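The count of called genes depended on the spread and on single arrays. The 16 genes kept their direction, but they were chosen on these same arrays, so this is no separate support. Against vehicle 16 genes were called, and with the spread of the 2 groups alone there were 0 (0 higher, 0 lower), as there were 0 without the intact analogs, a setting added after seeing the data. Trend and robust moderation gave 34 calls (29 higher, 5 lower) with all 16 genes kept, and the test over all clusters had 5 lower calls. Leaving out each array in turn gave 6 to 24 calls, 6 to 16 higher and 0 to 8 lower. Fits with array weights, median centring, quantile normalization, the signal filter or the mean of clusters gave 14 to 20. Against bPTH(3-34) the 11 calls became 0 with the 2 groups alone, 18 (17 higher, 1 lower) with trend and robust moderation, and 5 over all clusters. Array weights added 2 lower calls. Leaving out each array gave 2 to 9 calls, 2 to 9 higher and 0 to 1 lower. Against hPTH(1-34) the 2 groups alone gave 1425 calls (818 higher, 607 lower), and leaving out each array gave 1700 to 2133, 987 to 1309 higher and 700 to 824 lower. With the replicate number as a block 15 genes were called against vehicle, 13 of them among the 16 (Gm12250, Pstpip2 and Tnf were lost), 10 against bPTH(3-34) and 2826 against hPTH(1-34). Pstpip2 was called in 3 of 15 alternatives and Gm12250 in 7 of 15. In the innate lists, 43 to 88 genes had an unadjusted p under 0.05 on the higher side across alternatives, and the median stayed between 0.14 and 0.24 log2 units. 0 called values changed sign. The median of all genes moved by at most 0.02 log2 units with centring or quantile normalization. The cause of these differences was not tested, and the low signals of Il6 and Il1b limit what the arrays can show of falls or small changes in them.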
